A study of Mus musculus with 24 samples.

Results

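Splenic CD4+ T cells of Aim2-/- mice were compared with those of wild-type (WT) mice after 6 h of stimulation with antibodies to CD3 and CD28, using the 6 libraries of this time point out of 24 in the whole series. The members were chosen by the labels of genotype and time: 3 libraries from Aim2-/- mice (mice 1, 2 and 4) and 3 from WT mice (mice 1, 3 and 4), all labelled C57BL6. Both groups received the antibodies, which bind the receptor complex of the T cell and its main co-stimulatory partner. The study describes Aim2-/- mice of the C57BL/6 background that were bred and cohoused with the WT mice and matched for age and sex. CD4+ T cells were enriched by immunomagnetic removal of other cells, so a minor share of other splenic cells could remain. Each library is of a single mouse, and the other 18 libraries are of the same 6 mice at 0, 3 and 24 h. The age of the mice is not given in the sources used here.

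AIM2 is a cytosolic receptor for double-stranded DNA of the HIN-200 family. In myeloid cells it joins the adaptor ASC and caspase-1 in an inflammasome, and it is also expressed in T cells. The other HIN-200 genes form a cluster beside Aim2, and many of them respond to interferon. Early T cell activation proceeds from receptor-proximal kinases and adaptors to NFAT, NF-kB and AP-1 transcription factors, then to cytokines, and within hours to the growth programme of ribosome biogenesis, nutrient uptake and, later, the cell cycle.

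The 6 libraries held between 19993612 and 21627018 gene counts, and 3 counts corresponded to 0.132 to 0.146 counts per 1000000 (CPM, scaled by the TMM method). The defining CD4 T cell markers were abundant in every library. Their summed level, over 21 genes including Cd3e, Cd4 and Lck, was 11338, 12501 and 12069 CPM in Aim2-/- mice 1, 2 and 4 against 12206, 13077 and 12539 CPM in WT mice 1, 3 and 4, with a ratio of means of 0.949 and an exact two-sided permutation p of 0.2, where 0.1 is the smallest p that 3 against 3 libraries allow. In bulk samples of this kind, fewer cells of a type and less RNA per cell cannot be told apart.

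The targeted gene went against the label of 1 WT mouse. Aim2 (ENSMUSG00000037860, GRCm38 chromosome 1, 173350879 to 173466040) was counted at 11.4, 10.7 and 8.18 CPM in Aim2-/- mice 1, 2 and 4 and 11.5, 33 and 32.5 CPM in WT mice 1, 3 and 4. The mouse labelled WT 1 lay at the level of the Aim2-/- mice, while WT 3 and WT 4 were about 3 times as high. Differences were tested with edgeR's quasi-likelihood test, and a gene is said to be called, higher or lower where its Benjamini-Hochberg adjusted p over all genes tested was under 0.05. Aim2 was not called between the genotypes with all mice (edgeR log2 fold change -1.34 ± 0.54 SE, adjusted p = 0.0885), and without the 4 libraries of the mouse labelled WT 1 its log2 fold change was -1.70 (adjusted p = 1.24e-05). Counts per gene do not show which exons the reads of Aim2-/- cells come from.

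The neighbours of Aim2 split the libraries in the same way. Ifi213 was counted at 0.746, 1.39 and 1.15 CPM in Aim2-/- mice 1, 2 and 4 and 1.46, 24.6 and 30.8 CPM in WT mice 1, 3 and 4. Ifi206 was at 5.27, 11.7 and 7.36 CPM in Aim2-/- and 7.67, 59.5 and 81.5 CPM in WT cells, and Ifi208 was at 14.4, 16.2 and 14.4 CPM in Aim2-/- and 16.3, 72.9 and 96.4 CPM in WT cells. In each of these genes the mouse labelled WT 1 lay with or next to the Aim2-/- mice and far below the other WT mice. Ifi204 showed the opposite order, at 31.6, 28.5 and 32 CPM in Aim2-/- and 25.5, 0.973 and 1.75 CPM in WT cells, and so did Ifi211, at 7.07, 7.02 and 7.55 CPM in Aim2-/- and 9.04, 0.438 and 0.584 CPM in WT cells. Ifi202b was at 5.66, 3.33 and 5.87 CPM in Aim2-/- and 4.65, 0.0973 and 0 CPM in WT cells, so that WT 3 and WT 4 were at or below the floor of 3 counts. The genes of the family resemble one another in sequence, so reads can be lost or shared among copies and their levels are uncertain to that extent.

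**Figure D1:**
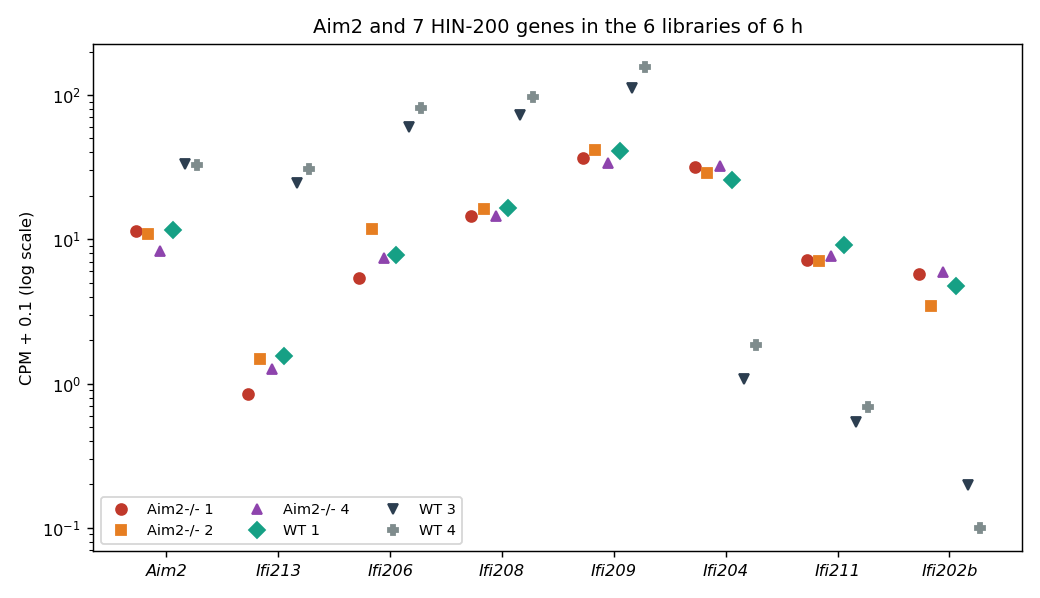
Expression of Aim2 and 7 other HIN-200 genes in each library of 6 h, on a log axis of CPM plus 0.1, with 1 symbol per mouse. The mouse labelled WT 1 (green diamonds) sits among the 3 Aim2-/- mice or close to them in all 8 genes, apart from WT 3 and WT 4.

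Of the 13 HIN-200 genes tested, 3 were called lower in Aim2-/- cells with all mice (Ifi206, Ifi209 and Ifi213) and 0 higher (1 higher at an unadjusted p under 0.05, and 0 and 2 by DESeq2 and limma-voom), where 15.8% of all genes tested were called. Ifi213 had the largest difference of these (edgeR log2 fold change -4.11 ± 1.31 SE, adjusted p = 0.0408). Without the mouse labelled WT 1, 4 were called higher and 8 lower of 13, against 11.4% of all genes in either direction (7.83% higher and 3.62% lower). Ifi204 then had a log2 fold change of 4.49 (adjusted p = 7.84e-06) in edgeR's test. Within 10 Mb of Aim2, 18 genes were called higher and 22 lower of 181 tested (22.1%, against 15.7% elsewhere in the genome). Without that mouse the share near Aim2 was 27.7% of 184 genes, against 11.3% elsewhere. Slamf7, a receptor of the SLAM family in this window, was at 46.1, 53 and 47.2 CPM in Aim2-/- and 81.7, 106 and 121 CPM in WT cells and did not overlap between the genotypes (edgeR log2 fold change -1.08 ± 0.25 SE, adjusted p = 0.0120). Slamf9, from the same family, was near the floor in WT cells, at 1.76, 1.99 and 1.15 CPM in Aim2-/- and 0.310, 0 and 0.146 CPM in WT cells.

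Over all genes, 1346 were higher in Aim2-/- cells and 1075 lower, of 15325 tested (8.78% and 7.01%). The CPM of the 3 Aim2-/- libraries and the 3 WT libraries did not overlap for 5455 genes (35.6%). The number of calls depended on single mice, with 3 in each group. Leaving out the mouse labelled WT 1 left 1226 higher and 566 lower genes, and 1266 genes were called in both fits, which is 52.3% of the calls with all mice and 70.6% of those without it. Leaving out WT 3 or WT 4 left 179 or 95 calls, the latter 0.607% of genes (0.281% higher and 0.326% lower). Leaving out Aim2-/- mouse 1, 2 or 4 left 295, 4020 or 422 calls. None of the calls made with all mice changed sign in any of these 6 fits. Of 112 genes followed by name, 104 were called with all mice, and 22, 72 and 81 of those were no longer called without WT 1, WT 3 or WT 4, and 66, 6 and 63 without Aim2-/- mouse 1, 2 or 4.

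**Figure D2:**
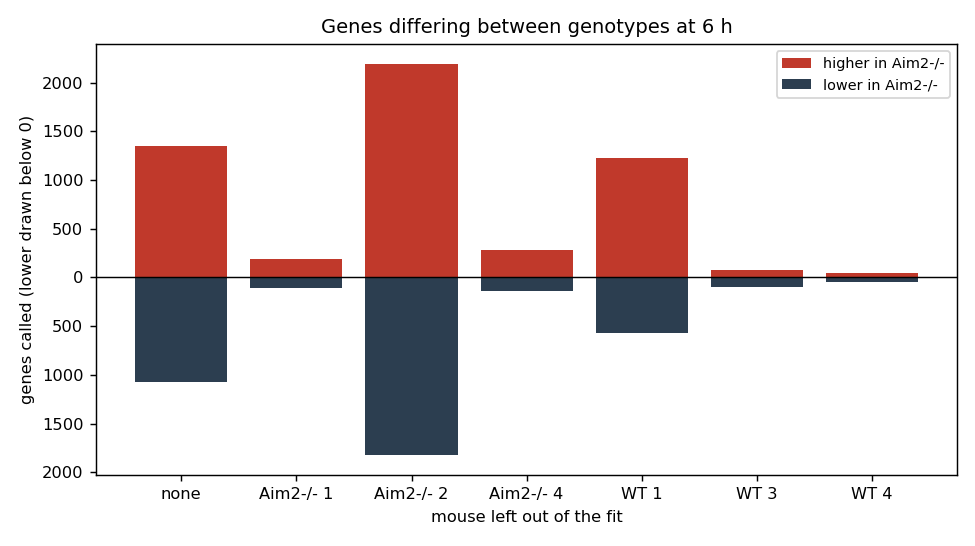
Number of genes called higher (drawn upward) and lower (drawn downward) in Aim2-/- cells at 6 h with all mice and with the 4 libraries of each mouse left out. The counts run from 95 genes without WT 4 to 4020 without Aim2-/- mouse 2, against 2421 with all mice.

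How far the mouse labelled WT 1 moved with the Aim2-/- mice was measured on the 1792 genes called without it. On a scale where 0 is the mean of WT 3 and WT 4 and 1 the mean of the Aim2-/- mice in log2 CPM, its median position was 0.405, and 41% of the genes lay nearer to the Aim2-/- mice. The median was 0.519 for genes higher in Aim2-/- cells and 0.102 for genes lower in them. For the 51 genes within 10 Mb of Aim2 it was 0.611. The same scale gave 0.0544 for WT 3, over 179 genes, and 0.136 for WT 4, over 95 genes. Those genes were called with the mouse labelled WT 1 kept among the WT mice. The sets of genes thus differ in how they were chosen, and the medians are not directly comparable.

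Sums of the marker lists of B lineage cells, monocytes and macrophages, neutrophils, basophils and megakaryocytes were above those of WT in each Aim2-/- library, whereas red pulp macrophage markers overlapped. Segments of immunoglobulin genes, the product of B lineage cells, summed to 17140.1, 11079.8 and 11675 CPM in Aim2-/- mice 1, 2 and 4 against 3324, 1020.5 and 993 CPM in WT mice 1, 3 and 4. Plasma cell markers summed to 772, 349 and 539 CPM in Aim2-/- mice 1, 2 and 4 against 148, 40.7 and 32.1 CPM in WT mice 1, 3 and 4. Both groups of libraries were apart in these sums, and WT 1 was the highest of the WT mice. Neutrophil lineage genes such as Mpo and Elane, enzymes of granules, summed to 256, 69.1 and 83.5 CPM in Aim2-/- mice 1, 2 and 4 against 23.2, 23.9 and 11.4 CPM in WT mice 1, 3 and 4. The ratios of the group means were 7.47 for immunoglobulin segments, 7.51 for plasma cells, 6.98 for the neutrophil lineage, 4.90 for basophils and mast cells, 3.34 for MHC class II genes, 3.12 for monocytes and macrophages, 3.08 for megakaryocytes and 2.36 for B cells. Each of these 8 comparisons reached the smallest possible exact permutation p of 0.1. Erythroid genes overlapped, with a ratio of 5.68 (exact permutation p = 0.2). The lists of NK cells, CD8 T cells and gamma delta T cells had ratios of 1.44, 1.24 and 1.01 and overlapped between the genotypes. Red pulp macrophage markers summed to 75.2, 38.3 and 40.9 CPM in Aim2-/- mice 1, 2 and 4 against 41.2, 15.2 and 20.6 CPM in WT mice 1, 3 and 4 (exact permutation p = 0.3). Dendritic cell and stromal lists had ratios of 1.77 and 1.92 without overlap. No marker in the lists of cell types was at 0 in all 6 libraries, while 170 of the 429 immunoglobulin segments were.

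**Figure D3:**
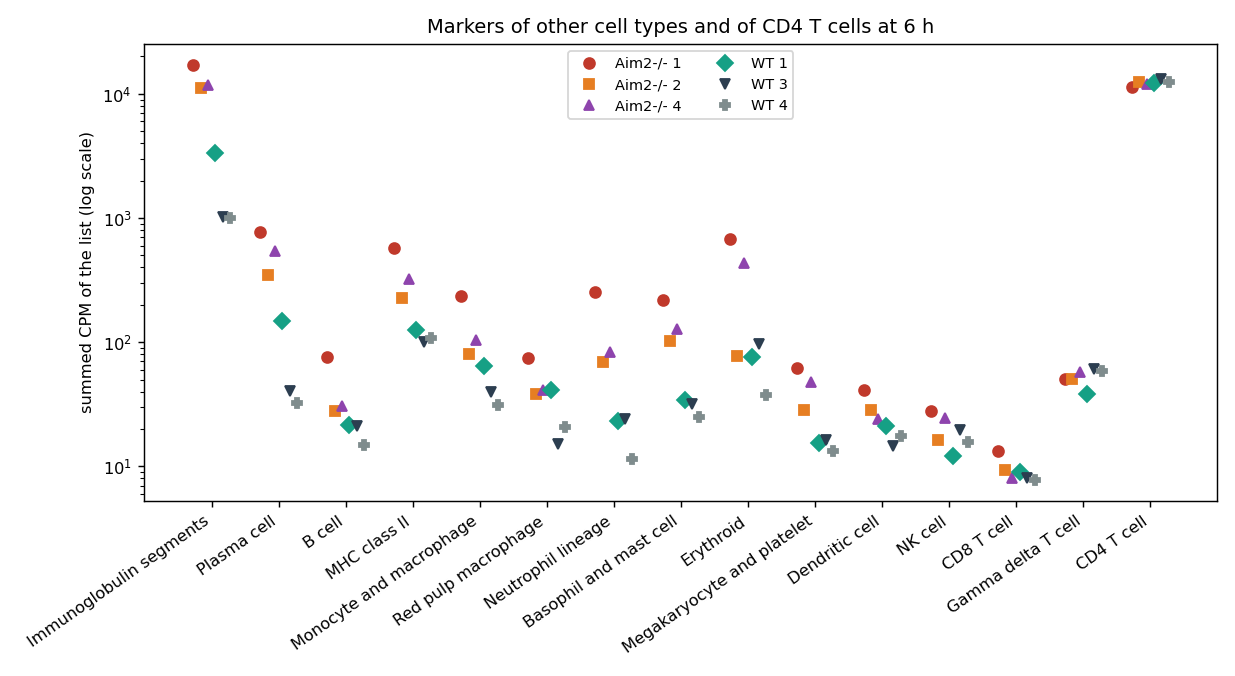
Summed CPM of marker lists of other cell types, of immunoglobulin segment genes and of CD4 T cells in each library of 6 h, on a log axis, with 1 symbol per mouse. Aim2-/- mouse 1 (red circles) is the highest in most lists of other cells, while the CD4 T cell list is nearly level across the 6 libraries.

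Single markers gave the same picture. Ighm, the heavy chain of IgM, was at 5245, 3573 and 3395 CPM in Aim2-/- mice 1, 2 and 4 and 687, 403 and 271 CPM in WT mice 1, 3 and 4 (edgeR log2 fold change 3.17 ± 0.42 SE, adjusted p = 0.00135). Mcpt8, a protease of basophils, was at 64.1, 28.5 and 33.3 CPM in Aim2-/- and 5.98, 5.64 and 3.21 CPM in WT cells, and the groups did not overlap (edgeR log2 fold change 3.08 ± 0.48 SE, adjusted p = 0.00350). Cd74, the invariant chain of MHC class II, was at 337, 156 and 183 CPM in Aim2-/- and 77.9, 62.9 and 68.8 CPM in WT cells (edgeR log2 fold change 1.69 ± 0.41 SE, adjusted p = 0.0151). Cd79a, a subunit of the B cell receptor, was low in all libraries, at 8.61, 3.65 and 3.51 CPM in Aim2-/- and 1.28, 0.778 and 0.924 CPM in WT cells (edgeR log2 fold change 2.39 ± 0.52 SE, adjusted p = 0.0100). Immunoglobulin segments were far more abundant than the 16 B cell markers, which summed to 75.9, 28.1 and 30.9 CPM in Aim2-/- mice 1, 2 and 4 against 21.4, 21 and 14.8 CPM in WT mice 1, 3 and 4. The haemoglobin gene Hbb-bs was at 235, 10.7 and 104 CPM in Aim2-/- and 6.07, 30.1 and 3.60 CPM in WT cells and was not called (edgeR log2 fold change 3.14 ± 1.27 SE, adjusted p = 0.0888).

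The called genes were separated by whether they could be tied to other cells without use of the 6 h contrast. A gene counted as tied when it was a marker of another cell type, an immunoglobulin or T cell receptor segment, or moved with B cell, myeloid and erythroid marker scores in the 18 libraries of 0, 3 and 24 h (6.96% of all genes tested). Segment genes gave 59 higher and 13 lower calls of 337, and marker genes 30 and 0 of 101. Genes moving with the scores gave 164 higher and 229 lower of 965. The shares called were 21.4%, 29.7% and 40.7% in these 3 classes. Over all genes tested the share was 15.8%, with 8.78% higher and 7.01% lower. The remaining class, not tied to other cells, held 13922 genes, of which 1093 were higher and 833 lower (13.8% called), and 1002 of these 1926 were also called without the mouse labelled WT 1. Membership in this class does not show that a transcript came from T cells. The score test rested on few mice, with 11 to 2503 genes depending on which mouse was left out, and with the scores as terms of the 6 h fit itself 262 genes were called (1.71%, with 1.03% higher and 0.679% lower).

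The genes that remained called with every mouse left out in turn numbered 64, 31 of them higher and 33 lower in Aim2-/- cells. Of the 12 most abundant, Ighm, Ighg3 and Cyba were higher, and Kdm6b, Zfp36l1, Hivep3, Dhx9, Rel, Slamf1, Chd1, Cd40lg and Med14 were lower. Kdm6b, a histone H3K27 demethylase, was at 379.6, 483 and 482 CPM in Aim2-/- mice 1, 2 and 4 and 832, 854 and 803 CPM in WT mice 1, 3 and 4 (edgeR log2 fold change -0.89 ± 0.16 SE, adjusted p = 0.00507). Hivep3, a large zinc finger protein, was at 236, 337 and 290.4 CPM in Aim2-/- and 760.4, 679.8 and 567 CPM in WT cells (edgeR log2 fold change -1.22 ± 0.23 SE, adjusted p = 0.00507). In both genes the mouse labelled WT 1 lay with the other WT mice and the genotypes did not overlap. Chd1, a chromatin remodeller, was at 183, 235 and 209 CPM in Aim2-/- and 328, 328 and 308 CPM in WT cells (edgeR log2 fold change -0.62 ± 0.10 SE, adjusted p = 0.00349). Zfp36l1, an RNA-binding protein that promotes decay of AU-rich transcripts, was at 411, 443 and 387 CPM in Aim2-/- and 577, 669 and 610.3 CPM in WT cells (edgeR log2 fold change -0.58 ± 0.11 SE, adjusted p = 0.00484). Med14, a subunit of Mediator, fell from a mean of 213 ± 41.9 CPM in WT to 109 ± 14 CPM in Aim2-/- cells (SD, n = 3 each). Batf, an AP-1 family factor of effector T cells, was among the higher genes, at 106, 105 and 113 CPM in Aim2-/- and 69.8, 53.9 and 64.6 CPM in WT cells (edgeR log2 fold change 0.78 ± 0.13 SE, adjusted p = 0.00369). Cyba, a subunit of the phagocyte NADPH oxidase that is also made in other leukocytes, was at 235, 199 and 222 CPM in Aim2-/- and 134, 136 and 156 CPM in WT cells (edgeR log2 fold change 0.62 ± 0.11 SE, adjusted p = 0.00484). These 7 genes did not overlap between the genotypes, were outside the class tied to other cells, and kept an adjusted p under 0.05 in edgeR's test with the marker scores as terms.

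Receptor-proximal signalling genes were lower where they were called. Of 28 genes of T cell receptor signalling, 9 were lower and 0 higher, where 7.01% of all genes were lower and 8.78% higher. The median log2 fold change of the list was -0.24, against 0.051 over all genes. Ptprc, which encodes the phosphatase CD45, was at 1653, 2079 and 1719 CPM in Aim2-/- and 2919, 2636 and 2671 CPM in WT cells (edgeR log2 fold change -0.59 ± 0.12 SE, adjusted p = 0.00845). Malt1, a paracaspase, was at 298, 383 and 389 CPM in Aim2-/- and 594, 539.7 and 474 CPM in WT cells (edgeR log2 fold change -0.59 ± 0.16 SE, adjusted p = 0.0220). Without the mouse labelled WT 1, 6 of 28 were lower, and with GC content and transcript length accounted for 6 were (4.5% of all genes were then higher and 4.63% lower). Ptprc and Pag1 were among 4 of the 9 lower genes that moved with the marker scores at the other time points, and with the scores as terms 1 of the list was lower. Without WT 3, WT 4, Aim2-/- mouse 1 or mouse 4, 0 of the list were lower in edgeR's test (12, 14, 11 and 11 at an unadjusted p under 0.05).

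Genes induced early by receptor signals were called in both directions. Among 25 of them, 7 were lower (Fos, Irf4, Myc, Nr4a1, Nr4a3, Egr1 and Egr3) and 4 higher (Ier3, Tnfaip3, Nfkbia and Batf). Over all genes 7.01% were lower and 8.78% higher. Without the mouse labelled WT 1, 6 of the list were lower and 1 higher, against 3.62% and 7.83% of all genes. Without WT 3, and likewise without WT 4, 1 was higher and 0 lower (9 and 11 lower at an unadjusted p under 0.05 in edgeR). With the marker scores as terms 1 was higher and 0 lower (8 lower at an unadjusted p under 0.05). Egr3, a zinc finger factor induced by calcium and NFAT signals, was at 91.4, 142 and 119 CPM in Aim2-/- mice 1, 2 and 4 and 222, 263 and 259 CPM in WT mice 1, 3 and 4 (edgeR log2 fold change -1.08 ± 0.24 SE, adjusted p = 0.0116). Irf4, whose level follows the strength of the receptor signal, was at 671, 1032 and 944 CPM in Aim2-/- and 1515, 1598 and 1495 CPM in WT cells (edgeR log2 fold change -0.80 ± 0.20 SE, adjusted p = 0.0164). Both genes were lower in every Aim2-/- mouse than in any WT mouse, and mouse 1 was the lowest. Myc, the driver of the growth programme, was at 356, 537 and 545 CPM in Aim2-/- and 628, 823 and 719 CPM in WT cells (edgeR log2 fold change -0.59 ± 0.19 SE, adjusted p = 0.0405). Nfkbia and Tnfaip3, inhibitors of NF-kB that NF-kB itself induces, had log2 fold changes of 0.32 and 0.38. Both calls were lost without the mouse labelled WT 1 (adjusted p = 0.143 and 0.0583 in edgeR). Of the NF-kB subunits, Rel was lower, at 214, 244 and 237 CPM in Aim2-/- and 374, 315 and 332 CPM in WT cells (edgeR log2 fold change -0.55 ± 0.10 SE, adjusted p = 0.00484), as was Nfkb1, with a log2 fold change of -0.43.

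Of 25 cytokine genes 1 was higher and 2 were lower, of 24 cytokine receptor genes 1 was higher and 4 were lower, and of 24 co-stimulators and checkpoints 3 were higher and 3 lower, where 8.78% of all genes were higher and 7.01% lower. Cd40lg, the helper ligand for CD40 on B cells, was at 98.9, 158 and 122 CPM in Aim2-/- mice 1, 2 and 4 and 257, 242 and 255 CPM in WT mice 1, 3 and 4 (edgeR log2 fold change -0.99 ± 0.19 SE, adjusted p = 0.00560). Tnf was at 243, 233 and 237 CPM in Aim2-/- and 363, 366 and 377 CPM in WT cells (edgeR log2 fold change -0.63 ± 0.18 SE, adjusted p = 0.0258). These were the called falls among the cytokine genes, and Il6 was the called rise, at 8.74, 5.03 and 6.25 CPM in Aim2-/- and 0.842, 1.99 and 1.65 CPM in WT cells, all low (edgeR log2 fold change 2.16 ± 0.56 SE, adjusted p = 0.0183). Il10 was at 29.8, 19.8 and 26 CPM in Aim2-/- mice 1, 2 and 4 and 25.6, 6.96 and 8.90 CPM in WT mice 1, 3 and 4. The mouse labelled WT 1 lay within the Aim2-/- range and about 3 times above the other WT mice. Il10 was not called with all mice (edgeR log2 fold change 0.86 ± 0.53 SE, adjusted p = 0.255), and without that mouse the log2 fold change was 1.66 (adjusted p = 0.0142). Among surface receptors, Slamf1, a co-stimulator of the SLAM family that also lies within 10 Mb of Aim2, was at 140.0, 217 and 204 CPM in Aim2-/- and 335, 382 and 336 CPM in WT cells (edgeR log2 fold change -0.91 ± 0.19 SE, adjusted p = 0.00713). Cd274, which encodes PD-L1, was lower, with a log2 fold change of -0.63, as was Il6st, the shared signal chain of the IL-6 receptor, with -0.77. Il10rb, a chain of the IL-10 receptor, was higher, with 0.67, and was called with any mouse left out.

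Foxp3, the lineage factor of regulatory T (Treg) cells, was at 369, 309 and 260.3 CPM in Aim2-/- mice 1, 2 and 4 and 257, 189 and 253 CPM in WT mice 1, 3 and 4. All 3 Aim2-/- values lay above the WT values, the lowest by little, and the difference was not called (edgeR log2 fold change 0.43 ± 0.25 SE, adjusted p = 0.237). Of 14 genes that the study takes from published Treg signatures, 4 were higher and 1 lower, where 8.78% of all genes were higher and 7.01% lower. Penk, the enkephalin precursor, was at 244, 156 and 176 CPM in Aim2-/- and 72.8, 46 and 50.2 CPM in WT cells (edgeR log2 fold change 1.77 ± 0.33 SE, adjusted p = 0.00547), and the groups did not overlap. Tnfrsf4, the co-stimulator OX40, was at 679, 587 and 688 CPM in Aim2-/- and 479.7, 364 and 428 CPM in WT cells (edgeR log2 fold change 0.62 ± 0.15 SE, adjusted p = 0.0159). Il2ra, the IL-2 receptor alpha chain that activated T cells and Treg cells share, was lower, at 547, 665 and 684 CPM in Aim2-/- and 948, 852 and 881 CPM in WT cells (edgeR log2 fold change -0.50 ± 0.14 SE, adjusted p = 0.0286). Ebi3 and Klrg1, at means of 7.47 and 9.16 CPM in Aim2-/- cells, were the other rises, and Ebi3 moved with the marker scores. Il2ra and Klrg1 were not called without the mouse labelled WT 1, where 4 of the list were higher and 0 lower. Without WT 3, WT 4, Aim2-/- mouse 1 or mouse 4 edgeR called 1, 0, 2 and 1 higher. At an unadjusted p under 0.05 these were 4, 6, 5 and 5. With the marker scores as terms 1 of the list was higher. Of the helper lineage factors, Gata3, the Th2 factor, rose by 0.35 on the log2 scale, a call that was lost without the mouse labelled WT 1 (adjusted p = 0.101 in edgeR). It was also lost without WT 3, WT 4, Aim2-/- mouse 1 or mouse 4, where edgeR called 0 of the 14 helper lineage factors.

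Among genes with a mean of at least 10 CPM in either genotype and not tied to other cells, the 12 largest rises without overlap of the 6 libraries included Cxcl9, Mt1, Gzmk and Acod1. Cxcl9, an interferon-gamma-induced chemokine, was at 40.3, 38.3 and 84.9 CPM in Aim2-/- mice 1, 2 and 4 and 11, 6.47 and 6.33 CPM in WT mice 1, 3 and 4 (edgeR log2 fold change 2.77 ± 0.44 SE, adjusted p = 0.00369). Mt1, a metal-binding protein, was at 27.1, 15.5 and 34.3 CPM in Aim2-/- and 7.62, 4.82 and 4.87 CPM in WT cells (edgeR log2 fold change 2.15 ± 0.36 SE, adjusted p = 0.00447). Gzmk, a granzyme of effector memory cells, was at 35.4, 52.9 and 34.5 CPM in Aim2-/- and 22.4, 9.97 and 8.22 CPM in WT cells, with the mouse labelled WT 1 between the groups (edgeR log2 fold change 1.59 ± 0.48 SE, adjusted p = 0.0342). Acod1, an enzyme that makes itaconate and is known from activated macrophages, was at 13.3, 8.08 and 14 CPM in Aim2-/- and 5.10, 1.36 and 1.56 CPM in WT cells (edgeR log2 fold change 2.13 ± 0.61 SE, adjusted p = 0.0276). Cxcl9 and Acod1 are widely expressed in myeloid cells, and the summed markers of monocytes and macrophages were higher in the same libraries, although neither gene moved with the scores at the other time points. The part of myeloid cells in the rise of these 2 genes was not tested. The rule for large rises also named Penk, Ret, S100a4, Naaa, Samd11, Myo3b, Hmgn3 and Cdca3, with log2 fold changes from 1.44 to 1.77. Of these 8 genes, S100a4 was not called without the mouse labelled WT 1 (adjusted p = 0.0673 in edgeR). Of the chemokine list, Ccl5, a chemokine of memory and effector T cells, was at 136, 126 and 153 CPM in Aim2-/- and 64.5, 50.8 and 60.5 CPM in WT cells (edgeR log2 fold change 1.24 ± 0.24 SE, adjusted p = 0.00601), and was not among these 12.

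Under the same rule of abundance and no overlap, the largest falls outside the tied class, after Ifi213, were Tspan9, a tetraspanin, at 10.8, 16.4 and 10.1 CPM in Aim2-/- and 20.6, 35 and 41.2 CPM in WT cells (edgeR log2 fold change -1.38 ± 0.36 SE, adjusted p = 0.0193), and Malat1, a nuclear non-coding RNA, at 277, 265 and 230.2 CPM in Aim2-/- and 770.0, 697 and 403 CPM in WT cells (edgeR log2 fold change -1.28 ± 0.26 SE, adjusted p = 0.00758). WT 4 was the lowest WT mouse for Malat1, yet above all Aim2-/- mice. Hivep3, Spin4, Slamf7, Lpp, Egr3, Npas2, Adarb1, Cd40lg and Srcap completed the 12, with log2 fold changes from -1.22 to -0.99. All 12 kept an adjusted p under 0.05 in edgeR's test without the mouse labelled WT 1. Not all did so with other mice left out. Hivep3, Cd40lg and Adarb1 were among the 64 genes called with any mouse left out, and Malat1, Slamf7 and Egr3 were not. Egr3 was not called without WT 3 or without WT 4.

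Of 42 chromatin regulators, 18 were lower and 1 higher (median -0.35 on the log2 scale), where 7.01% of all genes tested were lower, and 10 were lower of 42 without the mouse labelled WT 1. Besides Kdm6b and Chd1, Tet3, a dioxygenase of methylated cytosine that moved with the marker scores at the other time points, was at 120.1, 128 and 107 CPM in Aim2-/- and 195, 181 and 191 CPM in WT cells (edgeR log2 fold change -0.67 ± 0.12 SE, adjusted p = 0.00484). These genes are long, with a median transcript of 8008 nucleotides against 2998 over all genes, and 12 of them moved with the marker scores. With GC content and length accounted for, 9 were lower, and with the marker scores as terms 4. Without WT 3, WT 4, Aim2-/- mouse 1 or mouse 4, 4, 4, 4 and 5 were lower in edgeR's test.

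Of 63 genes of ribosome biogenesis, 21 were lower and 0 higher (median -0.39), and 40 were lower without overlap of the 6 libraries. Over all genes tested 7.01% were lower, and 35.6% did not overlap in either direction. Utp20, a component of the small subunit processome, was at 102, 162 and 152 CPM in Aim2-/- mice 1, 2 and 4 and 245, 249 and 216 CPM in WT mice 1, 3 and 4 (edgeR log2 fold change -0.77 ± 0.19 SE, adjusted p = 0.0146). Heatr1, which acts in transcription and processing of pre-ribosomal RNA, was at 161, 234 and 223 CPM in Aim2-/- and 362, 339 and 309 CPM in WT cells (edgeR log2 fold change -0.71 ± 0.16 SE, adjusted p = 0.0120). Ddx21, a nucleolar RNA helicase, was at 452, 808 and 702 CPM in Aim2-/- and 1057, 1076 and 984 CPM in WT cells (edgeR log2 fold change -0.67 ± 0.19 SE, adjusted p = 0.0260). Aim2-/- mouse 1 was the lowest in each, and the 3 WT mice were close to each other. The median of the list without the mouse labelled WT 1 was -0.42, with 6 falls. Without WT 3, WT 4, Aim2-/- mouse 1 or mouse 4 edgeR called 0, 0, 2 and 2 falls (30, 41, 29 and 46 at an unadjusted p under 0.05). With GC content and length accounted for there were 18 falls, and with the marker scores as terms edgeR called 0 (14 lower at an unadjusted p under 0.05). Of 83 genes of cytosolic ribosomal proteins, edgeR called 0 (median 0.022), with 3 higher and 7 lower at an unadjusted p under 0.05, 3 lower by DESeq2 and 0 by limma-voom. With GC content and length accounted for, edgeR called 8 of 83 lower (median -0.20).

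Promoters of the lower ribosome biogenesis genes were searched for CACGTG, the E-box that MYC and related factors are known to bind and that reads the same on both strands. The sequences were the RefSeq promoters of GRCm38.p6, from 250 bases before to 50 bases after each transcript start. Of the 19 lower genes with such a promoter, 5 held the motif (26.3%). Among the other 40 genes of the list it was 5 (12.5%), of all 800 lower genes that have a promoter 123 (15.4%), of the 10599 tested genes that have a promoter 11.6%, and of the whole set of 27025 promoters 8.09%. The genes with the motif were Utp20, where it lies at the end of the promoter window, and Utp4, Tsr1, Rrn3 and Ltv1. Their windows are shown with the motif in capitals and 10 bases on each side, 5′ to 3′ on the strand of the gene, because the motif is what these genes share. A match describes letters in the promoter and is not evidence of binding.
Utp4 (chr8:106893645-106893670, plus strand, motif starting at base 16 of the transcript): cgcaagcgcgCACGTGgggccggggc
Tsr1 (chr11:74898094-74898119, plus strand, motif starting at base 25 of the transcript): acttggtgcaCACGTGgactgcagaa
Rrn3 (chr16:13780474-13780499, plus strand, motif starting 215 bases before the start of transcription): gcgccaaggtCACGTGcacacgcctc
Rrn3 (chr16:13780641-13780666, plus strand, motif starting 48 bases before the start of transcription): acgctctgctCACGTGggccgcgtcc
Ltv1 (chr10:13193094-13193119, minus strand, motif starting at base 29 of the transcript): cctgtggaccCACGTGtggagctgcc

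The 4 genes of these windows were taken from the genes of the list that were called lower. They were lower in each Aim2-/- mouse than in any WT mouse, as were 40 of all 63 genes of the list. Utp4, of the small subunit processome, was at 82, 132 and 119 CPM in Aim2-/- and 162, 168 and 154 CPM in WT cells. Rrn3, an initiation factor of RNA polymerase I and the only one with 2 copies shown, was at 74.3, 108 and 102 CPM in Aim2-/- and 126, 132 and 130.2 CPM in WT cells. Tsr1, which acts in maturation of the small subunit, and Ltv1, its export adaptor, had log2 fold changes of -0.53 and -0.42. Utp4 and Rrn3 moved with the marker scores at the other time points.

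Some genes of other growth lists were lower. Over all genes 7.01% were lower and 8.78% higher, and 3.62% and 7.83% without the mouse labelled WT 1. Among 52 translation initiation genes, 10 were lower and 1 higher, and 3 and 1 without the mouse labelled WT 1. Eif4g1, the scaffold of the cap-binding complex, was at 525, 731 and 606 CPM in Aim2-/- and 966, 919.9 and 872 CPM in WT cells (edgeR log2 fold change -0.57 ± 0.15 SE, adjusted p = 0.0198). The rise was Eif4ebp1, which encodes a repressor of cap-dependent translation, at 18.9, 14.7 and 18.5 CPM in Aim2-/- and 10.8, 10.1 and 9.29 CPM in WT cells (edgeR log2 fold change 0.79 ± 0.17 SE, adjusted p = 0.0100). Of 25 genes of nucleotide and one-carbon synthesis, 6 were lower and 1 higher, and 2 and 1 without that mouse. With the marker scores as terms edgeR called 0 of both lists lower (7 and 4 at an unadjusted p under 0.05). Without WT 3, WT 4, Aim2-/- mouse 1 or mouse 4 it likewise called 0 of both lists lower. At an unadjusted p under 0.05, 17, 20, 12 and 25 translation initiation genes were lower in those fits. For nucleotide and one-carbon synthesis the counts were 11, 13, 8 and 15. Cad, the enzyme that starts pyrimidine synthesis, was at 134, 231 and 193 CPM in Aim2-/- and 337, 316 and 268 CPM in WT cells (edgeR log2 fold change -0.72 ± 0.22 SE, adjusted p = 0.0325). Of 16 amino acid transporters 3 were higher and 6 lower, and of 37 chaperone and folding genes 3 and 7. In the same 4 fits edgeR called 1, 0, 0 and 1 of the transporters lower and 0 of the chaperone list. Slc7a5, a transporter of large neutral amino acids, was at 139, 223 and 180.0 CPM in Aim2-/- and 293, 291 and 261 CPM in WT cells (edgeR log2 fold change -0.64 ± 0.19 SE, adjusted p = 0.0340). Hsp90ab1, an abundant chaperone, was at 2633, 4026 and 3564 CPM in Aim2-/- and 4956, 5086 and 4822 CPM in WT cells (edgeR log2 fold change -0.54 ± 0.15 SE, adjusted p = 0.0215). Eif4g1, Cad, Slc7a5 and Hsp90ab1 were all lower in every Aim2-/- mouse, and none of these 4 was called without the mouse labelled WT 1 (adjusted p from 0.0542 to 0.103 in edgeR), with log2 fold changes from -0.65 to -0.53 against -0.72 to -0.54 with all mice.

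Some cell cycle genes were higher in Aim2-/- cells, from low levels, and the number called depended on which mice were used. With all mice 15 of 43 DNA replication genes and 9 of 36 genes of mitosis and G2/M were higher and 0 of either list lower in edgeR's test (1 at an unadjusted p under 0.05). Leaving out the mouse labelled WT 1 gave 12 of 43 and 33 of 36, and the median log2 fold change of the mitosis list moved from 0.93 to 1.33. Over all genes 8.78% were higher with all mice and 7.83% without that mouse. Cdk1, the mitotic kinase, was at 36.2, 15.6 and 35.2 CPM in Aim2-/- mice 1, 2 and 4 and 16, 8.56 and 8.13 CPM in WT mice 1, 3 and 4 (edgeR log2 fold change 1.41 ± 0.40 SE, adjusted p = 0.0277). Aurkb, a kinase of chromosome segregation, was at 24.5, 10.9 and 21.4 CPM in Aim2-/- and 11.7, 5.06 and 6.03 CPM in WT cells (edgeR log2 fold change 1.31 ± 0.37 SE, adjusted p = 0.0256). Aim2-/- mouse 2 and the mouse labelled WT 1 were at about the same level in both genes, between mice 1 and 4 on one side and WT 3 and WT 4 on the other. Rrm2, a subunit of ribonucleotide reductase, had the same order, at 36, 15.7 and 29.6 CPM in Aim2-/- and 18.4, 9.34 and 9.63 CPM in WT cells. Without WT 3 or without WT 4, 0 of the mitosis and replication genes were called by edgeR, where 11 and 12 mitosis genes and 14 and 13 replication genes were higher at an unadjusted p under 0.05. Without Aim2-/- mouse 2, 31 mitosis and 24 replication genes were higher. Dividing precursors of other lineages express these genes too, and erythroid and neutrophil lineage markers were highest in Aim2-/- mouse 1, followed by mouse 4. In Aim2-/- mouse 2 and WT mice 1, 3 and 4, erythroid markers summed to 77.6, 76.6, 96.1 and 37.3 CPM. The mitosis list summed to 747, 880, 533 and 564 CPM in the same order. The part of other lineages in the levels of these genes was not tested. With the marker scores as terms of the fit, 0 mitosis genes (6 higher at an unadjusted p under 0.05 in edgeR) and 2 replication genes were called, and the median log2 fold change of the mitosis list was 0.48.

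**Figure D4:**
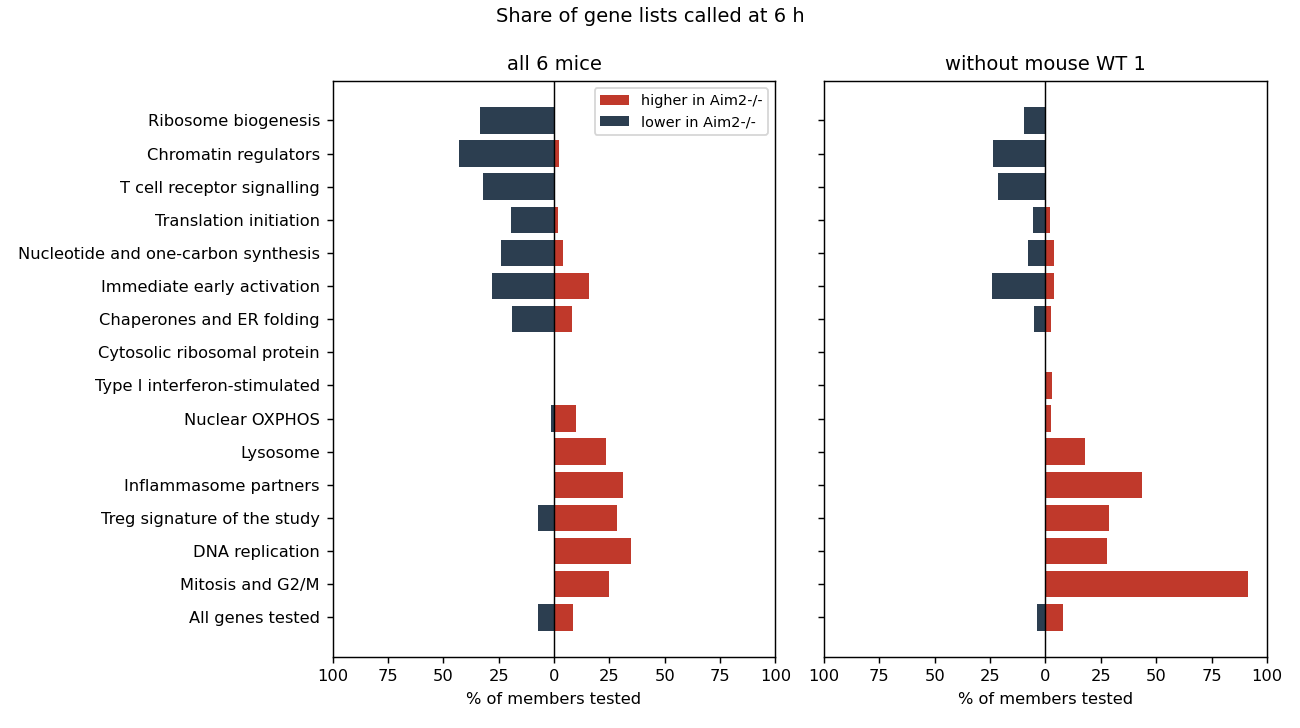
Share of the tested members of 15 gene lists and of all genes that were called higher (to the right) or lower (to the left) in Aim2-/- cells at 6 h, with all 6 mice and without the mouse labelled WT 1. Ribosome biogenesis, chromatin and receptor signalling genes fall on the lower side in both panels, and mitosis genes go from 9 to 33 called.

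Inflammasome partners and lysosomal enzymes were higher where called. Of 16 inflammasome genes, 5 were higher and 0 lower, where 8.78% of all genes were higher. Pycard, which encodes the adaptor ASC that AIM2 binds, was at 51.8, 40.6 and 49.4 CPM in Aim2-/- mice 1, 2 and 4 and 30.6, 28.5 and 26.4 CPM in WT mice 1, 3 and 4 (edgeR log2 fold change 0.73 ± 0.13 SE, adjusted p = 0.00484). Naip5, a receptor for bacterial flagellin that is best known from macrophages, was at 22.3, 11.3 and 13.1 CPM in Aim2-/- and 7.62, 5.01 and 4.82 CPM in WT cells (edgeR log2 fold change 1.42 ± 0.42 SE, adjusted p = 0.0306). Of 34 lysosomal genes, 8 were higher and 0 lower. Without the mouse labelled WT 1, 7 inflammasome and 6 lysosomal genes were higher. Without WT 3 edgeR called 1 and 2 higher, and without WT 4 it called 0 and 0 (5 and 9 at an unadjusted p under 0.05). With the marker scores as terms the counts were 1 and 2. Ctsd, the protease cathepsin D, was at 135, 101 and 115 CPM in Aim2-/- and 78.3, 74.6 and 78.1 CPM in WT cells (edgeR log2 fold change 0.60 ± 0.11 SE, adjusted p = 0.00484), and Acp5, a tartrate-resistant acid phosphatase, was at 52.6, 47.4 and 44.3 CPM in Aim2-/- and 31.5, 29.2 and 31.5 CPM in WT cells (edgeR log2 fold change 0.65 ± 0.12 SE, adjusted p = 0.00484). Pycard, Ctsd and Acp5 were not tied to other cells by the rule and kept an adjusted p under 0.05 with the marker scores as terms, whereas Naip5 did not (adjusted p = 0.379 in edgeR). Pmaip1, which encodes the pro-apoptotic protein NOXA, was at 55.7, 32.4 and 37.2 CPM in Aim2-/- and 26.8, 13.5 and 18.5 CPM in WT cells (edgeR log2 fold change 1.09 ± 0.34 SE, adjusted p = 0.0381).

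Of 80 nuclear genes of oxidative phosphorylation, 8 were higher and 1 lower, where 8.78% of all genes were higher and 7.01% lower. The median log2 fold change of the list was 0.23, against 0.051 over all genes, with 68 genes above 0 and 12 below. At an unadjusted p under 0.05 in edgeR, 28 were higher and 3 lower. Leaving WT 1 out gave 2 higher and 0 lower of the list, against 7.83% and 3.62% of all genes. Accounting for GC content and length gave 1 and 1, against 4.5% and 4.63% of all genes. The median of the list was then 0.013, against -0.023 over all genes. Ndufb10, a subunit of complex I, was at 90.7, 73.6 and 89.7 CPM in Aim2-/- and 54.1, 61.2 and 59.2 CPM in WT cells (edgeR log2 fold change 0.54 ± 0.11 SE, adjusted p = 0.00776). Of 27 glycolysis genes, 1 was higher and 3 were lower. Fasn, the fatty acid synthase, which also moved with the marker scores at the other times, was at 270.2, 389 and 319 CPM in Aim2-/- and 558, 538 and 508 CPM in WT cells (edgeR log2 fold change -0.71 ± 0.18 SE, adjusted p = 0.0164), within a list of 35 lipid synthesis genes that had 6 rises and 5 falls. Of 33 interferon-stimulated genes outside the HIN-200 family, edgeR and limma-voom and DESeq2 each called 0, with 1 higher and 1 lower at an unadjusted p under 0.05, and without the mouse labelled WT 1 edgeR called 1 of 33 higher. Of 17 interferon-induced GTPases, edgeR called 0, with 5 lower at an unadjusted p under 0.05, and DESeq2 and limma-voom called 5 and 1 lower. Without the mouse labelled WT 1 edgeR called 3 of 17 GTPases lower, and without Aim2-/- mouse 2 it called 4. Stat4, the signal transducer of the Th1 cytokine IL-12, was higher, with a log2 fold change of 0.50, and Stat6, that of the Th2 cytokine IL-4, was lower, with -0.33, a call that was lost without the mouse labelled WT 1 (adjusted p = 0.0837 in edgeR). Without WT 3, WT 4 or Aim2-/- mouse 1, edgeR called 0 of the 21 genes of their list.

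The direction of the calls went with transcript length. Genes higher in Aim2-/- cells had a median transcript of 2184 nucleotides and a median GC content of 52.2%, lower genes 5191 nucleotides and 46.4%. In the shortest quintile of genes 12.3% were higher and 1.37% lower, and in the longest quintile 3.53% were higher and 19.4% lower. Mean log2 CPM of the longest quintile, relative to all 6 libraries, was 0.075, 0.0016 and -0.088 in Aim2-/- mice 1, 2 and 4 and 0.12, -0.084 and -0.024 in WT mice 1, 3 and 4, and the groups overlapped. In the shortest quintile it was 0.15, 0.097 and 0.19 in Aim2-/- and -0.13, -0.13 and -0.18 in WT mice, without overlap. Quintiles 2 and 3 did not overlap either, with the Aim2-/- mice higher, and quintile 4 did. With the trend of each library with GC content and length removed, 1398 genes were called (9.12%), 689 of them higher.

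**Figure D5:**
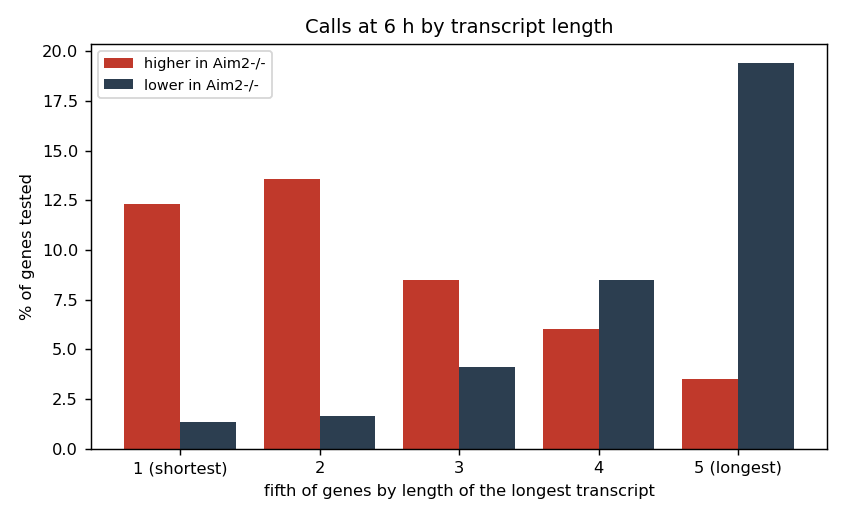
Share of genes called higher and lower in Aim2-/- cells at 6 h in quintiles of the genes tested by length of the longest transcript. The share of lower genes rises from 1.37% to 19.4%, and that of higher genes is smallest in the longest quintile.

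The position of each library along the course of activation was also measured. The mean log2 CPM of 3071 genes that fell at least 2-fold from 3 to 24 h over both genotypes was subtracted from that of 3001 genes that rose. It was 0.046, 0.17 and 0.45 in Aim2-/- mice 1, 2 and 4 and 0.24, 0.49 and 0.37 in WT mice 1, 3 and 4, where the WT means were -0.53 at 3 h and 3.11 at 24 h. The groups overlapped (exact permutation p = 0.4, smallest possible 0.1), and the difference of the means was -0.14. It was -0.057 without Aim2-/- mouse 1, -0.26 without Aim2-/- mouse 4, -0.084 without WT 3 and -0.33 when taken over genes that changed by more than 2 on the log2 scale. Aim2-/- mouse 1, which had the lowest levels of Egr3, Irf4, Myc, Utp20, Heatr1 and Ddx21, had the lowest position of the 6 libraries, and the part of this position in those levels was not tested.

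The same mice gave fewer calls at the other time points. In the same fit, 802 genes were called at 0 h (5.23%, with 3.24% higher and 1.99% lower), 45 at 3 h (0.294%, 0.254% and 0.0392%) and 102 at 24 h (0.666%, 0.659% and 0.00653%). The difference between time points was tested as an interaction. The genotype difference at 6 h minus that at 0 h was called for 4 genes, Acp5, Arhgap9, Arrb2 and Oard1, the last 3 of which are named only for this count (2019 at an unadjusted p under 0.05). Against 3 h, against 24 h and against the mean of the 3 other times, edgeR called 0 genes (1221, 1153 and 1570 at an unadjusted p under 0.05). The fit had no term for the mouse, although these contrasts compare libraries of the same 6 mice. They can therefore miss differences, and a count of 0 does not show that the genotype difference was equal over time. With these tests it is not shown that a gene of these lists differed between the genotypes at 6 h alone.

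Among the genes of large rises, Penk had log2 fold changes of 1.83, 1.39 and 1.75 at 0, 3 and 24 h (adjusted p = 0.00720, 0.0721 and 0.0231 in edgeR). For Cxcl9 they were 1.86, 2.98 and 2.64 (adjusted p = 0.150, 0.00754 and 0.0117 in edgeR). Both fold changes were above 0 at each time, and not each passed the test. Of the lower genes, Kdm6b had log2 fold changes of 0.059, -0.33 and -0.20 (adjusted p = 0.859, 0.336 and 0.518 in edgeR), and Egr3 of -0.21, -0.66 and -0.71 (adjusted p = 0.634, 0.217 and 0.129 in edgeR). The median log2 fold change of the ribosome biogenesis list was -0.0018, -0.10 and -0.20 at 0, 3 and 24 h, and that of the mitosis list 0.70, 0.56 and -0.14.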

How the data were processed

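The deposited table held raw read counts per gene, which the authors made from single-end reads of stranded mRNA libraries aligned with STAR to GRCm38. The submitters' processing notes also name edgeR and DESeq2. Whether counting used strand is not given in the sources used here, so overlapping and antisense genes are uncertain. All 24 libraries were fitted together in edgeR 4.0.16 (R 4.3.3) as 8 groups of genotype and time, with TMM scaling, the default filter with a minimum count of 10 (15325 genes kept), a quasi-likelihood test and Benjamini-Hochberg adjusted p under 0.05. SE is the log2 fold change divided by the root of F. Gene names, GC content and longest transcripts came from GENCODE M21 (54409 of 54446 identifiers matched). The label of each library names its mouse, so replicates were separate animals. Libraries of 1 mouse deviated together over time (36 pairs, r from 0.139 to 0.567). The fit had no term for the mouse, so the spread used in the 6 h tests treats the 24 libraries as independent. At 6 h the 2 pairs of WT and Aim2-/- mice with a shared number are different animals (r = 0.0316 and 0.268), so genotypes were not paired.

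Marker scores were fitted as 3 terms. Alternatives were DESeq2 1.42.0, limma-voom 3.58.1, other scalings and filters, replicate blocks, 6 h libraries alone, GC and length trends, and each mouse or library left out. The steps were tested on simulated data. Named genes were Aim2 and its family, the 12 largest rises and 12 largest falls without overlap at 10 CPM or more outside the tied class, up to 4 genes per list, up to 5 rises and falls near Aim2, and the 12 most abundant genes called with any mouse left out. Il10, Egr1, Myc, Rrn3, Ltv1, Tsr1 and Utp4 were chosen after their values were seen. The comparison, the lists and the alternatives were chosen with earlier results of these data known. The floor of 3 counts covers counting error only. A result on 1 gene of a list is not reported here.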

Additional observations from a re-analysis of the deposited data

Results flagged for a closer look

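Acp5, which encodes tartrate-resistant acid phosphatase 5, differed between the genotypes to a different extent at 6 h and at 0 h. At 0 h it was counted at 77.4, 104 and 103 CPM in Aim2-/- and 93.3, 134 and 119 CPM in WT cells, and at 6 h at 52.6, 47.4 and 44.3 CPM in Aim2-/- and 31.5, 29.2 and 31.5 CPM in WT cells. The 6 h groups did not overlap and the Aim2-/- libraries were higher, while at 0 h the groups overlapped and the Aim2-/- mean was the lower one. The genotype difference at 6 h minus that at 0 h was 0.93 on the log2 scale (adjusted p = 0.0441 by an interaction term in edgeR, chosen after seeing the data). At 3 h Acp5 was at 52.9, 50.6 and 47.3 CPM in Aim2-/- and 52.8, 55 and 53.5 CPM in WT cells, and at 24 h at 42, 38 and 41.4 CPM in Aim2-/- and 32.8, 33.2 and 34.1 CPM in WT cells. The other genes that passed this test were Arrb2, Arhgap9 and Oard1, with differences of 0.74, 0.77 and 0.71, and no explanation was tested.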

How the results depend on the processing

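Against the 2421 genes called between the genotypes at 6 h, 979 were called with the 6 h libraries alone, 262 with marker scores as terms, 1398 with GC and length trends removed and 132 with both. Outside the class tied to other cells (1926) the counts were 625, 150, 1069 and 71. With the mouse number as a replicate block they were 5516 and 4394. That block joins all libraries of a number, also those of WT and Aim2-/- mice that share it and are different animals. With each mouse as a random block in limma-voom the counts were 3129 and 2447. Leaving out Aim2-/- mouse 1, 2 or 4, or WT mouse 1, 3 or 4, in that order, gave 295, 4020, 422, 1792, 179 and 95 genes, and outside the tied class 195, 3107, 331, 1468, 127 and 67. Leaving out a single 6 h library gave 128 to 3363 and 90 to 2624. The genes moving with marker scores numbered 1067 with all mice and 413, 11, 207, 2503, 1289 and 580 in the same order. Aim2 was called without a filter (log2 fold change -1.42) and without the mouse labelled WT 1, and ranged from -1.70 to -1.12 with a mouse or library left out. Hbb-bs changed sign to -0.055 and -0.25 with marker scores, without and with GC and length. DESeq2 called 3258, limma-voom 2493, no filter 2942, RLE size factors 2385 and library totals 2410 genes. The share of higher genes was 55.6% in the reported fit, 47.3% with RLE size factors, 64.8% with library totals and 40.8% with a minimum mean of 1 CPM. Causes of these shifts were not tested. Marker sums and the position along activation kept their direction in each alternative run. With 3 mice in a group, genes under about 1 CPM rest on few counts.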
